A study of Mus musculus with 2 samples.

Results

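The insulin-high cells of the Isl1CKO library were 383 of its 2987 kept cells (12.8%, 95% exact binomial interval 11.6% to 14.1%), out of 5491 cells kept in the 2 libraries. They were chosen as Isl1CKO barcodes with at least 500 genes, at most 15% of unique molecular identifiers (UMIs) from mitochondrial genes and at least 20% of UMIs from Ins1 and Ins2 together. Their reference was 898 of 2504 control cells (35.9%, 34.0% to 37.8%) with at least 6825 UMIs and the same insulin share. A second reference was the other 2604 kept Isl1CKO cells. Because the cells were chosen by their insulin UMIs, their insulin content and their share of the library are descriptions only.

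The study profiled pancreatic islet cells of 9-day-old mice with the 10x Chromium 3' v3.1 single-cell assay, in which each UMI marks the 3' end of 1 captured transcript. Control animals were Neurod1 Cre/+; Isl1f/+ and Isl1CKO animals were Neurod1 Cre/+; Isl1f/f, so both groups carried Cre, named for a gene of endocrine progenitors and islet cells, and a tdTomato reporter, and they differed in having 1 or 2 floxed Isl1 alleles. Islet cells were dissociated with collagenase and trypsin in the presence of actinomycin D, a transcription inhibitor, and sorted for tdTomato. Each library pooled 6 animals, so there was 1 library per genotype, no test between genotypes could be made, and genotype, animals and library cannot be told apart. All intervals below are at 95% and cover counting error only.

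Beta cells make insulin, pack it with zinc into dense-core granules and release it when glucose metabolism closes potassium channels and lets calcium in. After birth they mature: levels of the factor MafA and the peptide urocortin 3 rise, glucose sensing sharpens and division slows. Isl1 is a DNA-binding protein of the LIM-homeodomain family, made in every islet hormone cell type and needed for their differentiation, and mice carry a pair of insulin genes, Ins1 and Ins2.

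The Isl1CKO insulin-high cells held a median of 38693 UMIs and 4566 genes, against 48339.5 UMIs and 4403.5 genes in the control cells. Hormone transcripts took a median of 54.4% and 69.4% of these UMIs, so levels are given as UMIs per 1000000 UMIs outside Ins1, Ins2, Iapp, Gcg, Sst, Ppy, Pyy and Ghrl, summed over the cells of a library. On counts per 1000000 of all UMIs (CPM) every log2 ratio between the libraries is higher by 0.547. Mitochondrial genes took a median of 1.27% of UMIs in the Isl1CKO and 0.723% in the control cells. The deposited Isl1CKO matrix held only 3020 barcodes, the lowest with 4882 UMIs, whereas the control matrix listed empty droplets too. The 2 sets of insulin-high cells shared 1 barcode sequence. Scrublet, a doublet caller, marked 1 of the 383 cells and 11 of the 898, and it marked only 0.167% of the whole Isl1CKO library, so doublets may remain.

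The sexes were mixed differently in the 2 sets. By Xist and Y-linked UMIs, 221 of the 383 Isl1CKO cells were female (57.7%) and 130 male (33.9%), while 188 of the 898 control cells were female (20.9%) and 615 male (68.5%). Within the Isl1CKO library 22.6% of female cells (19.99% to 25.3%) and 7.30% of male cells (6.13% to 8.61%) were insulin-high. In control these shares were 41.6% (37.0% to 46.3%) and 34.9% (32.7% to 37.2%). These shares follow from the 20% rule and from the UMI minimum in control, where a minimum of 1000 UMIs gave 27.8% over all cells, and they describe 1 library each. Sex and animal cannot be told apart in pooled libraries, so the main results are also given by sex where this matters.

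Isl1 itself, at chromosome 13:116298281-116309689 of GRCm38, had 2765 UMIs in the Isl1CKO and 3744 in the control insulin-high cells. Its level was 415 against 282, a log2 ratio of 0.56 (0.49 to 0.63), and 95.8% of Isl1CKO and 89.3% of control cells had at least 1 Isl1 UMI. Thinned to 2000 non-hormone UMIs per cell, the shares were 51.4% and 38.9%. Mesenchymal cells, with at least 1% of UMIs from Col1a1, Col1a2, Col3a1, Dcn, Lum and Sparc, serve as cells that should lack islet genes. None of the Isl1CKO library (0 of 22, median 7876.5 UMIs) had an Isl1 UMI, where 3 counts of the total allow a share of cells with a UMI of up to 13.6%, and 3 of 46 in control (median 7975 UMIs) did. The floxed exon is not named in the labels, and a 3' tag outside the deleted part checks nothing, so these UMIs do not show whether recombination took place in these cells.

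Ins1 and Iapp are shown first through the sequences just upstream of their start sites, because LIM-homeodomain factors recognise a TAAT core. Both are among the hormone genes that together hold most of the cells' UMIs. Ins2, which held more UMIs than either, had no entry in the sequence source and is not shown. Npy is added because it had no UMI in the Isl1CKO insulin-high cells. The 250 bases before the annotated start (RefSeq, GRCm38.p6, forward strand) are printed with every TAAT on either strand in capitals, overlapping matches included. The windows are chr19:52264047-52264296 for Ins1, chr6:142298175-142298424 for Iapp and chr6:49822460-49822709 for Npy.
Ins1: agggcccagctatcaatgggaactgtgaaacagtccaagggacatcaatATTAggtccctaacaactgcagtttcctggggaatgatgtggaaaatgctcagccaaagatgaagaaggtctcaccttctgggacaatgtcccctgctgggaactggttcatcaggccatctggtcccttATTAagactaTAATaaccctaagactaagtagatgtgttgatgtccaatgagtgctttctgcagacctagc
Iapp: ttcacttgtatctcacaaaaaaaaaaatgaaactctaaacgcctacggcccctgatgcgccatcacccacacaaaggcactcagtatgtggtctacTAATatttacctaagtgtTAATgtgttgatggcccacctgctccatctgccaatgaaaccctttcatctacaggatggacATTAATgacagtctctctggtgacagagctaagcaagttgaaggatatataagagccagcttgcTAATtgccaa
Npy: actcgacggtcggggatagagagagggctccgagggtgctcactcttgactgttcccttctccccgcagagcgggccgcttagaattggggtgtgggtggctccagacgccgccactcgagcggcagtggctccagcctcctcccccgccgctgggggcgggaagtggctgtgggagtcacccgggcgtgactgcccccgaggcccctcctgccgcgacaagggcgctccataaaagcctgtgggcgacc
The Ins1 window holds 3 matches, the Iapp window 5 and the Npy window 0. Of 32851 windows of this length, 54.9% hold at least 1 match, the median is 1, and 5.54% hold 5 or more. A match describes the letters only.

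Insulin transcripts made up a median of 50.4% of the UMIs of an Isl1CKO insulin-high cell, with a range of 20.2% to 74.4%, against 65.5% in control, with a range of 20.1% to 91.4%. In the Isl1CKO library 112 cells lay between 20% and 40%, 168 between 40% and 60% and 103 at 60% or more; in control the counts were 40, 185 and 673. Near the threshold, 19 Isl1CKO cells lay between 18% and 20% and 12 between 20% and 22%, so the 20% rule divides a continuous range there. In control 0 and 4 cells lay in these ranges. The Isl1CKO cells thus spread from the threshold to 74.4%, while most control cells sat at 60% or more and reached 91.4%.

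**Figure D1:**
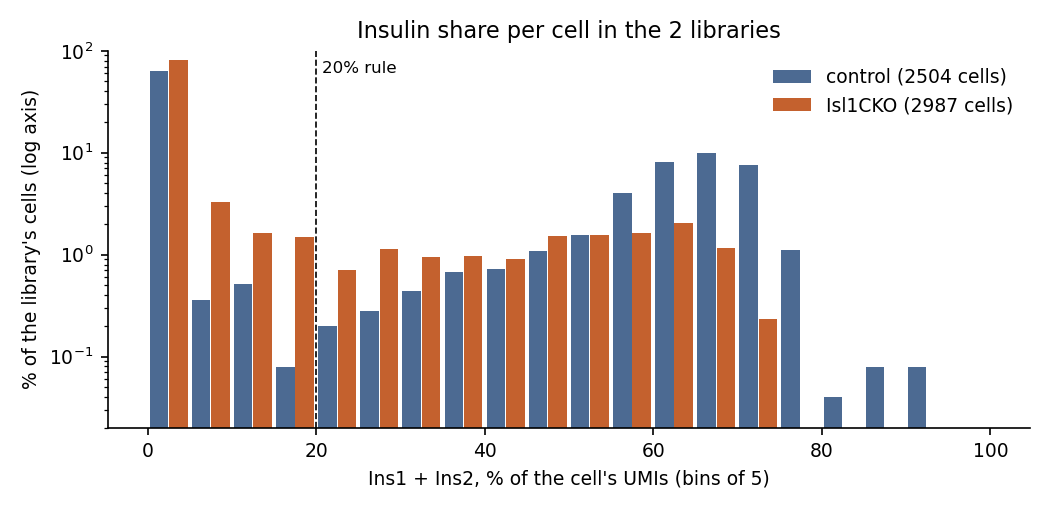
Share of each library's kept cells (log axis) by the percentage of UMIs from Ins1 and Ins2, in bins of 5 percentage points, with the 20% rule as a dashed line. Control insulin-high cells pile up at 60% or more (673 of 898), whereas the Isl1CKO cells spread from 20.2% to 74.4% and also fill the bins just below 20%.

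In the Isl1CKO cells Ins2 was further below control than Ins1 was. Ins1, at chromosome 19:52264297-52265476, stood at 208765 CPM in the Isl1CKO and 216439 CPM in the control cells. Ins2 stood at 298667 against 429174 CPM. Per non-hormone UMI the log2 ratios were -0.60 for Ins1 and -1.07 for Ins2. Ins1 therefore made up 41.1% of insulin UMIs in the Isl1CKO cells and 33.5% in control, with 1.43 and 1.98 Ins2 UMIs for each Ins1 UMI. Per cell the Ins1 part had a median of 42.5% and quartiles of 32.7% and 49.8% in the Isl1CKO cells, against 33.1%, 30.3% and 36.1% in control. The upper quartile of control thus lay below the Isl1CKO median. Female cells gave 43.1% against 32.6% and male cells 37.1% against 33.8%. At 60% or more insulin the Ins1 parts were 41.6% and 33.3%. The 2 genes are closely related copies, and reads that fit both were handled in a way not given in the sources used here, so the split between them is uncertain in both libraries. Iapp, which encodes the amyloid peptide co-secreted with insulin, stood at 32299 against 32789 CPM.

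**Figure D2:**
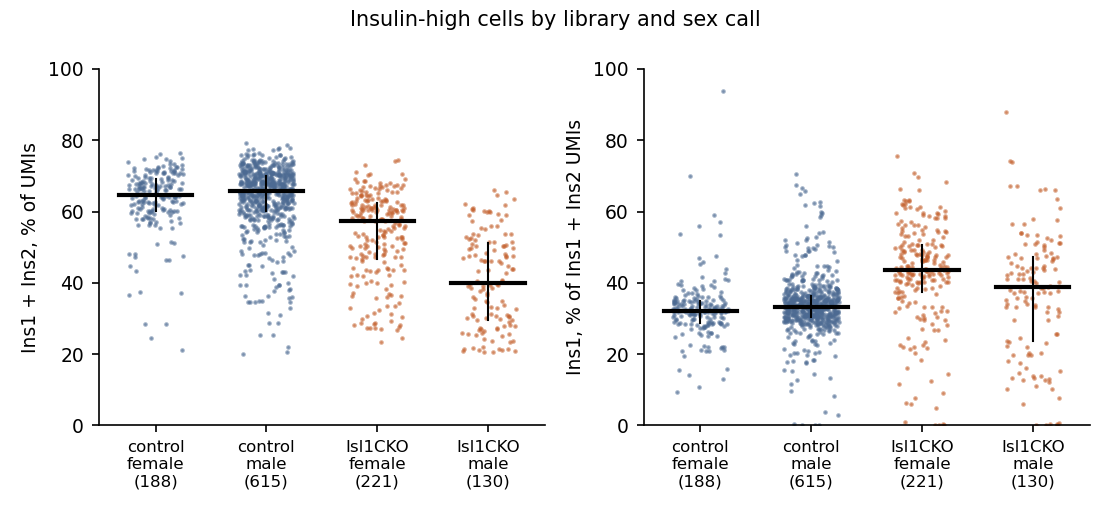
Each point is 1 insulin-high cell, by library and sex call, with the number of cells in brackets. The left panel gives the percentage of UMIs from Ins1 and Ins2 and the right panel the Ins1 percentage of those UMIs. Horizontal bars are medians and vertical bars quartiles. Median insulin share is 57.4% in female and 40.0% in male Isl1CKO cells against 64.7% and 65.6% in control, and the Ins1 part is higher and more spread in the Isl1CKO cells.

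Across the transcriptome, 10675 genes had at least 50 UMIs in the set with the higher level. Of these, 409 (3.83%) had a level 2-fold or more above control in the Isl1CKO insulin-high cells and 591 (5.54%) a level 2-fold or more below it, with a median log2 ratio of -0.15. On CPM the split was 1112 higher and 256 lower with a median of 0.41, and relative to the median gene 507 and 468. "Higher" and "lower" below mean past this 2-fold rule per non-hormone UMI unless a value is given alone. When control cells were weighted to the insulin share of the Isl1CKO cells, 289 genes (2.71%) were higher and 611 (5.73%) lower of 10671. This weighting, called matched insulin share below, leans on few control cells. Only 40 of them lay at 20% to 40% insulin, against 112 Isl1CKO cells. Insulin share is also the value that the rule used, so the weighted values are descriptions. Whether these control cells are typical beta cells was not tested.

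The label of beta cells was checked against 15 marker genes. In the Isl1CKO insulin-high cells 14 of them had UMIs, and all 13 compared were higher than in the other Isl1CKO cells, a contrast that the choice of cells used and that is given as a description. Adcyap1 was at 0 UMIs. Against control insulin-high cells, 0 of 14 beta cell markers were higher and 6 lower (Ins2, Mafa, Ucn3, G6pc2, Ero1lb and Sytl4), with a median log2 ratio of -0.86, or -0.32 on CPM. With control weighted to the same insulin share, 1 of the list was lower.

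Most beta cell transcription factors lay close to control. Of 22 listed, 20 were compared, 0 were higher and 2 lower, and the median log2 ratio was -0.074. Nkx6-1, a factor that holds beta cell identity, had levels of 312 in the Isl1CKO and 378 in the control cells (-0.27, -0.35 to -0.20). Nkx2-2 had 162 against 186, a log2 ratio of -0.20. Pax6, needed for hormone gene expression in all islet cells, had 360.1 against 428 (-0.25). Foxa2 had 95.4 against 109 (-0.19), and Neurod1 681 against 749 (-0.14), although exons of Neurod1 and Cerkl overlap on the same strand and make its counts uncertain. These ratios are small beside the 2-fold rule, and all turn positive on CPM.

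Pdx1, an activator of insulin transcription, had 249 against 492, a log2 ratio of -0.98 (-1.06 to -0.90) that lies at the 2-fold rule. It was -0.57 in female and -1.16 in male cells. Mafa was lower, with 4 UMIs in the 383 Isl1CKO cells and 127 in the 898 control cells. This is a log2 ratio of -3.99 (-5.89 to -2.60), and 4 Isl1CKO cells (1.04%) and 109 control cells (12.1%) had a Mafa UMI. Thinned, 0 of 383 and 11 of 895 cells did, so Mafa is sparse in both sets. Mnx1, a homeodomain factor that represses non-beta programs, was lower at 13.2 against 48.1 (-1.86, -2.20 to -1.54), by -1.20 in female and -2.88 in male cells. Rfx6, a factor of islet development, stood above control without reaching 2-fold, at 102 against 57.8 (0.82).

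Genes of postnatal maturation were the list with the most lower members. Of 22 listed, 20 were compared, 12 were lower and 1 higher, and the median log2 ratio was -1.20, or -0.65 on CPM. Ucn3, the peptide that marks mature mouse beta cells, had a level of 134 in the Isl1CKO and 488 in the control cells, a log2 ratio of -1.87 (-1.97 to -1.77). A Ucn3 UMI was found in 44.6% of Isl1CKO and 84.6% of control cells, or 18.5% and 52.2% after thinning. Mesenchymal cells, which should lack it, gave 0 of 22 and 4 of 46 before thinning. G6pc2, the islet glucose-6-phosphatase that sets glucose sensitivity, had 295 against 929 (-1.65, -1.72 to -1.58). Trpm5, a calcium-activated cation channel, had 25.9 against 146 (-2.49, -2.73 to -2.27). Glp1r, the incretin receptor, had 25 UMIs against 259 (-2.38, -3.03 to -1.78). These genes stood well below control in the summed cells.

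The prolactin receptor Prlr was lower at 51.4 against 207 (-2.01); its exons overlap those of Gm21973. Sytl4, which tethers insulin granules to the membrane, had 138 against 372 (-1.43), and Ero1lb, an oxidase that helps insulin form its disulfide bonds, 313 against 726 (-1.21). Nnat had 352 against 997 (-1.50) and Ppp1r1a 566 against 1291 (-1.19). The fatty acid receptor Ffar1 sat just past the rule at 74.7 against 149.8. Cox6a2, a subunit of cytochrome c oxidase, had 0 UMIs against 482, at least 80.6-fold lower against a floor of 3 UMIs over the set. The higher gene was Esrrg, a nuclear receptor of oxidative metabolism, with 75 UMIs against 30 (2.32). Slc2a2, the glucose transporter GLUT2, had 700.4 against 1177 (-0.75) and stayed within 2-fold.

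The size of these differences went with the insulin content and the sex of the cells. With control weighted to the insulin share of the Isl1CKO cells, 6 of the maturation list were lower, and Ucn3 (-0.87), G6pc2 (-0.96), Sytl4 (-0.76), Ero1lb (-0.64), Ppp1r1a (-0.65) and Ffar1 (-0.73) no longer passed, while Trpm5 (-1.36), Glp1r (-1.89), Prlr (-1.31) and Nnat (-1.14) did. Among Isl1CKO cells the Ucn3 level was 33.3 at 20% to 40% insulin, 133 at 40% to 60% and 285 at 60% or more. Control cells in the same ranges had 88.4, 251 and 591. Ucn3 was thus below control in each range and climbed with insulin content in both libraries. Trpm5 followed with 4.88, 26.5 and 56.4 against 24, 62.3 and 181.

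By sex, 320 of 7766 genes (4.12%) were lower in female and 637 of 9023 (7.06%) in male cells, with 312 (4.02%) and 264 (2.93%) higher. Of the maturation list 7 of 17 compared were lower in female and 13 of 19 in male cells. Ucn3 stood at 219.7 in female and 24.9 in male Isl1CKO cells, against 442 and 503 in control. The log2 ratio was therefore -1.01 in female and -4.34 in male cells. Slc2a2 gave -0.40 and -1.46, G6pc2 -1.23 and -2.38, and Trpm5 -1.48 and -4.33. The wider gap in male cells is a difference between cells of 1 pooled library, where median insulin was also lower in male cells; it was not tested.

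**Figure D3:**
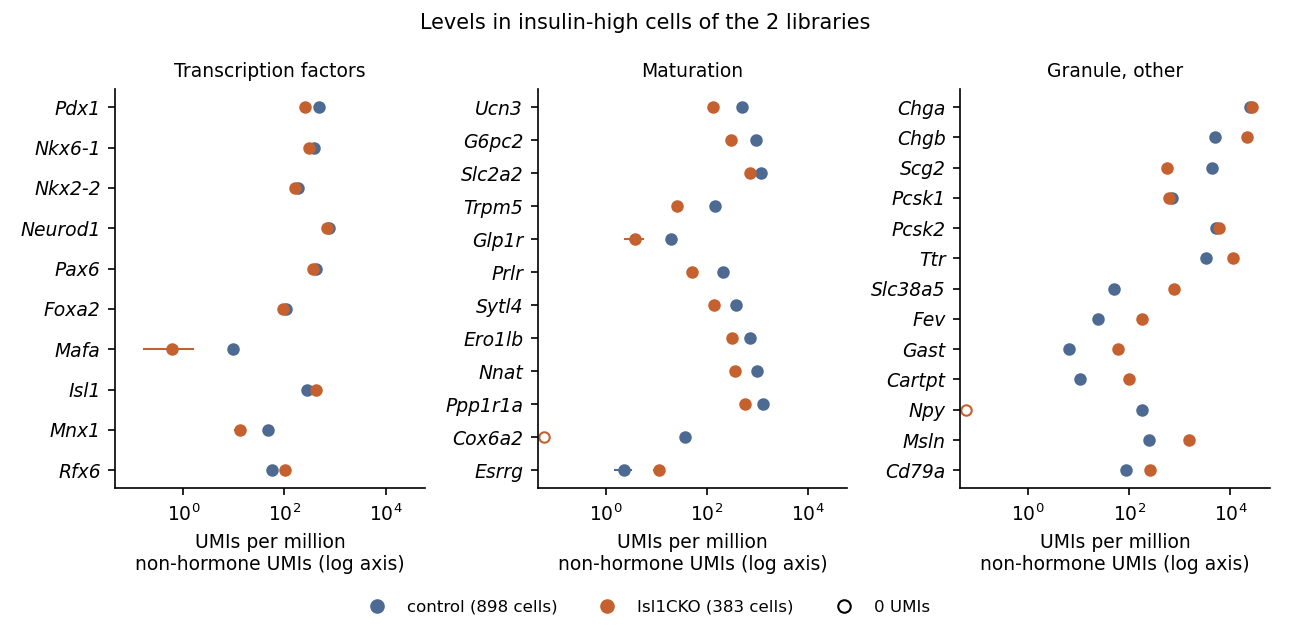
Levels (UMIs per 1000000 non-hormone UMIs, log axis) of named genes in insulin-high cells of the control and Isl1CKO libraries, summed over cells, with 95% exact Poisson intervals as lines where wider than the point. Open circles stand for 0 UMIs. Points of Nkx6-1, Nkx2-2, Neurod1, Pax6 and Foxa2 nearly overlap, the maturation genes other than Esrrg lie to the left of control in Isl1CKO cells (Ucn3 at 134 against 488), and Chgb, Ttr, Slc38a5 and Msln lie to the right.

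The machinery that processes insulin was near control while the granins, the bulk proteins of the granule core, moved apart from each other. Of 15 genes for insulin production and granule maturation, 0 were higher and 1 lower (Ero1lb), with a median log2 ratio of -0.13, which is 0.42 on CPM. The prohormone convertases Pcsk1 and Pcsk2 had 609 against 689 (-0.18) and 6010.0 against 5101 (0.24). The zinc transporter Slc30a8 had 923 against 1466 (-0.67). Of 8 granins 2 were higher and 1 lower. Chgb, chromogranin B, had 21237 against 4877, a log2 ratio of 2.12 (2.11 to 2.14). Scg2, secretogranin II, went the other way with 553 against 4368 (-2.98, -3.03 to -2.93). Chga, chromogranin A, had 26312 against 23974 (0.13). Vgf was higher with 269 UMIs against 173 (1.63), and 0.99 at matched insulin share.

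Chgb and Scg2 kept their calls in every alternative run. The Chgb ratio ranged from 1.20 at matched insulin share to 2.67 on CPM, and the Scg2 ratio from -3.42 in cells with little Msln to -2.43 on CPM. Within the Isl1CKO cells Chgb was 33929 at 20% to 40% insulin, 17416 at 40% to 60% and 9612 at 60% or more. The control values were 12562, 6572 and 3807. Chgb was thus lower where insulin was higher in both libraries and stood above control in each range. Scg2 was 400.4, 567 and 754 against 2809, 3446 and 4768, so it stood below control in each range. The other Isl1CKO cells had Scg2 at 528 and Chgb at 20372, close to the insulin-high cells of their own library.

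Channel genes differed more than exocytosis genes by count. Of 16 channel genes compared, 4 were higher (25%) and 2 lower (12.5%, Scn9a and Trpm5), with a median of 0.28. Over all genes 3.83% were higher and 5.54% lower. At matched insulin share 3 channel genes were higher and 2 lower. Cacna2d1 and Cacna2d3 encode auxiliary subunits of voltage-gated calcium channels. Cacna2d1 had 392 against 193 (1.02), and Cacna2d3 had 157 UMIs against 9 (5.12, 4.16 to 6.28). The potassium channel Kcnk3 had 92.4 against 29 (1.67), and the acid-sensing channel Asic2 132 UMIs against 14 (4.23). Scn9a, a voltage-gated sodium channel, was lower at 22.2 against 64.8 (-1.55). Abcc8, the sulfonylurea receptor of the ATP-sensitive potassium channel, had 299 against 320.2 (-0.099). Of 14 exocytosis genes 0 were higher and 1 lower (7.14%, Sytl4), near the share over all genes. The SNARE protein Snap25 had 153 against 154 (-0.011).

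Few genes of the metabolic lists and of the unfolded protein response passed the 2-fold rule, while 5 of 7 senescence and stress genes did, in both directions. Over all genes 3.83% were higher and 5.54% lower. Of 17 genes of glucose uptake and metabolism 0 were higher and 2 lower (G6pc2 and Pcx), with a median of -0.34 per non-hormone UMI and 0.20 on CPM. Pcx, pyruvate carboxylase, had 27.1 against 59.3 (-1.13). None of 19 oxidative phosphorylation genes passed in either direction, and their median was -0.28 per non-hormone UMI and 0.27 on CPM. Of 14 genes of the unfolded protein response 0 were higher and 1 lower (Creld2, -1.24), with medians of -0.46 and 0.087. The direction of these 3 medians thus turns with the scale. In the senescence and stress list Cdkn1c (1.39), Gadd45a (1.38) and Gpx3 (1.61) were higher and Cdkn1a (-1.61) and Txnip (-1.24) lower. With control weighted to the insulin share of the Isl1CKO cells, 1 of this list was higher and 2 lower. Txnip, an inhibitor of thioredoxin, was -2.78 in female and -0.28 in male cells. Of 8 immediate early genes, which respond to dissociation, Egr1 was higher (1.04) and Jun lower (-1.50). At matched insulin share 0 of that list were higher and 2 lower, and likewise without each gene's 5 richest cells.

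Fewer of the Isl1CKO insulin-high cells carried transcripts of dividing cells. At least 5 UMIs of the proliferation list were found in 6 of 383 cells (1.57%, 0.577% to 3.38%) against 59 of 898 (6.57%, 5.04% to 8.39%). Of 13 proliferation genes 9 were lower and 0 higher, with a median of -1.50, or -0.95 on CPM. In female cells 8 of 9 compared were lower and 0 higher, with a median of -5.28. In male cells 4 of 12 were lower and 1 higher, with a median of -0.91. Mki67 had 49 UMIs against 871 (-3.16, -3.60 to -2.74). With the cells of at least 5 proliferation UMIs removed in both libraries 3 genes of the list were lower. Depth bears on such a threshold, and the median Isl1CKO cell had more non-hormone UMIs (16281 against 14373.5).

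**Figure D4:**
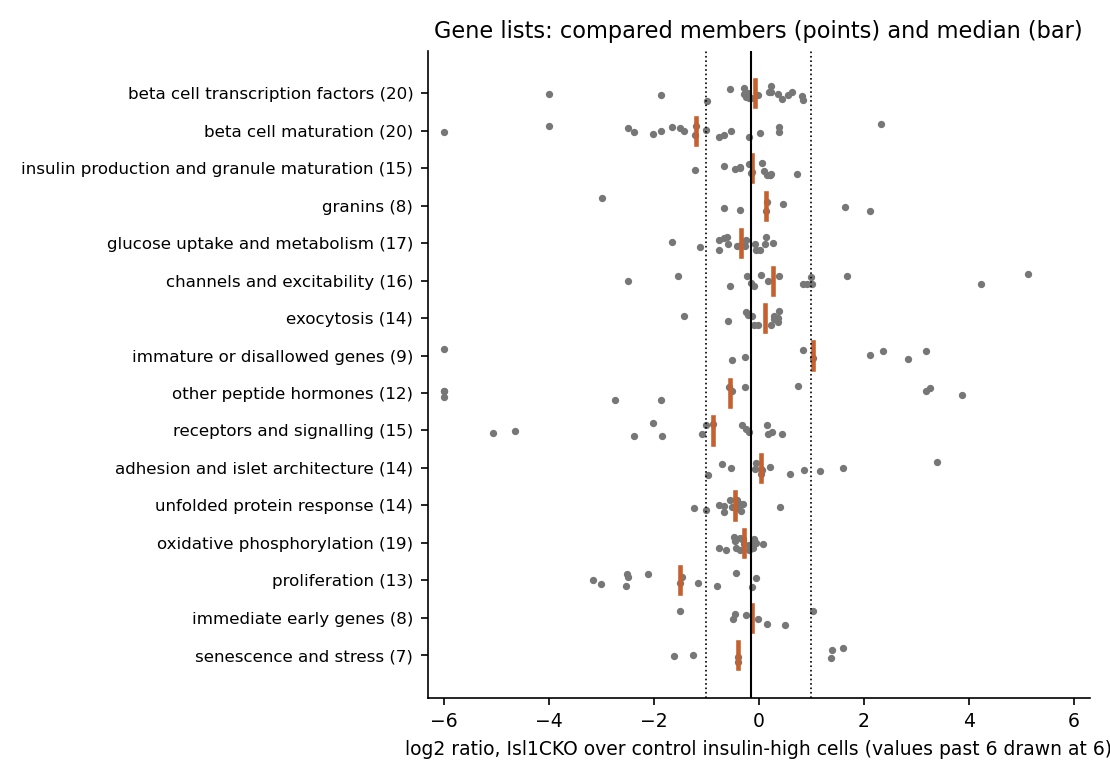
Log2 ratios between Isl1CKO and control insulin-high cells for the compared members of 16 gene lists (points, number compared in brackets), with each list's median as a bar. The solid line is the median of all genes (-0.15) and dotted lines mark 2-fold. The proliferation (-1.50), maturation (-1.20) and receptor (-0.88) lists have the lowest medians, and the list of immature or disallowed genes (1.03) the highest. Other lists also lie off the all-gene median, among them other peptide hormones (-0.54) and the unfolded protein response (-0.46) to the left. Channels (0.28) lie to the right.

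Genes typical of immature beta cells, or usually silent in beta cells, were more often higher than lower, a balance that was lost at matched insulin share. Of 9 compared 5 were higher (Gast, Fev, Neurog3, Aldh1a3 and Dlk1) and 1 lower (Npy), with a median of 1.03. With control weighted to the insulin share of the Isl1CKO cells, 3 were higher (Gast, Fev and Dlk1) and 3 lower (Npy, Cck and Pyy). Female cells gave 5 higher and 1 lower of 7, and male cells 3 higher and 2 lower of 8. Fev, a factor of endocrine precursors, had 175 against 24.3 (2.85, 2.67 to 3.03) and was seen in 77.5% of Isl1CKO and 22.3% of control cells, or 27.4% and 4.47% after thinning. Mesenchymal cells gave 0 of 22 and 1 of 46. Neurog3, the factor that starts endocrine differentiation, had 151 UMIs against 69 (2.13), but 0.40 at matched insulin share. Aldh1a3 had 77 against 30 UMIs (2.36) and likewise 0.74 at matched share. Dlk1, an imprinted ligand, had 116 against 56.7 (1.03). At matched insulin share the Fev ratio was 1.81, smaller but still past 2-fold, while Neurog3 and Aldh1a3 were under it.

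Several other peptide genes differed. Of 12 compared 3 were higher and 5 lower (Gcg, Sst, Ppy, Npy and Ucn3), with medians of -0.54 per non-hormone UMI and -0.022 on CPM. Gast, gastrin, had 395 UMIs against 87 (3.18), with a level of 128 in male and 15.9 in female Isl1CKO cells. Cartpt, a neuropeptide precursor, had 666 against 139 UMIs (3.26, 2.99 to 3.53), and Sct, secretin, 198 against 27 (3.87). The 3 genes were concentrated in the cells with least insulin. Gast was 152 at 20% to 40% insulin, 14.8 at 40% to 60% and 6.63 at 60% or more, and its 5 richest cells held 57.2% of its UMIs. Sct was 64.3, 15.5 and 5.31, with 55.1% in 5 cells, and Cartpt was 192 at 20% to 40% and 30.5 at 60% or more. At matched insulin share the ratios were 1.59, 2.94 and 2.61. Npy, neuropeptide Y, a peptide of young beta cells, had 0 UMIs in the Isl1CKO cells and 2406 in control, at least 402-fold lower against a floor of 3 UMIs. In control 57 cells with more than 5 Npy UMIs held 97.8% of them, at a median insulin share of 66.8%. In the Isl1CKO set 0 of 383 cells had an Npy UMI, and 3 counts of that total put the limit for the share of cells with a UMI at 0.783%, against 9.13% of control cells. The other Isl1CKO cells also had 0.

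Receptors were lower or near control. Of 15 compared 0 were higher and 7 lower, with a median of -0.88, or -0.33 on CPM. Ntrk2, a neurotrophin receptor, had 14 UMIs against 933 (-5.06, -5.94 to -4.31), and the purinergic receptor P2ry1 had 13 against 648 (-4.64, -5.56 to -3.86). Adra2a, the adrenergic receptor through which adrenaline holds back insulin release, had 24.6 against 88.7 (-1.85). The glucagon receptor Gcgr had -1.07, with -2.14 in female and -0.16 in male cells. Among 14 adhesion genes 3 were higher and 0 lower; of 13 compared in each sex, female cells gave 2 and 0 and male cells 2 and 3. The tight junction gene Cldn4 had 221 against 72.4 (1.61), the synaptic adhesion gene Nlgn1 195 UMIs against 37 (3.39), and Efna5, an ephrin of beta cell contacts, 54 against 48 (1.17).

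Among the 10 genes with the highest ratios, several were near zero in control. Pros1, protein S of blood clotting, had 329 UMIs against 26 (4.66) and was seen in 48.0% of Isl1CKO and 2.45% of control cells, although mesenchymal cells had it in 18 of 22 and 32 of 46. Cidea, a lipid droplet gene, had 131 against 7 (5.22), but a level of 103 in the other Isl1CKO cells against 19.6 here. Ppp1r14c, a phosphatase inhibitor, had 126 against 8.95 (3.82). Vstm2a had 72 UMIs against 3 and Dnah11, a dynein chain, 82 against 9. Ccl5, a chemokine, also ranks here, but all 110 of its UMIs lay in 1 cell. The rest of these genes, Cacna2d3, Asic2, Sct and Slc38a5, are described with their groups.

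Among the 10 lowest were Gcg, Sst, Npy, Cox6a2, Ntrk2 and P2ry1, described with their groups. Dapl1 had 8 UMIs in the Isl1CKO and 1143 in the control cells (-6.16, -7.38 to -5.18), in 4 of 383 and 318 of 898 cells. Loxl2, a lysyl oxidase, had 1 against 349, with a counting interval of -12.76 to -4.96 on the log2 scale. Ovol2, a zinc finger factor of epithelia, had 0 against 110, at least 18.4-fold lower against the floor, and the potassium channel Kcnj12 0 against 97, at least 16.2-fold lower. Hadh, a fatty acid oxidation enzyme whose loss raises insulin release, was singled out after its values were seen. It had 173 against 1264 (-2.87, -2.95 to -2.78).

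Markers of other islet cells were mixed, and free RNA differed between the libraries. Gcg, glucagon, was found in 19.1% of Isl1CKO insulin-high cells with a median of 0 UMIs, and in 99.9% of control insulin-high cells with a median of 14. Control mesenchymal cells, which should lack Gcg, had it in 100% of cells with a median of 9, and Isl1CKO mesenchymal cells in 4.55%. Sst was found in 3.66% and 94.1% of insulin-high cells. The log2 ratios of -9.20 for Gcg, -6.76 for Sst and -2.73 for Ppy thus stand beside free hormone RNA in the control droplets, and its part in them was not tested. Cells with at least 1% of UMIs from Gcg, Sst, Ppy and Ghrl numbered 3 of 383 and 62 of 898, and without them the Ppy ratio was -1.03.

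Of 12 alpha cell markers 4 were higher (Irx1, Gc, Ttr and Slc38a5), and Gcg was among the lower, with a median of 0.43. Their summed level was 14876 against 14726. These sums include Gcg, at 6.54 CPM in the Isl1CKO and 2625 CPM in the control cells. The near-equal sums therefore do not show that the alpha cell markers other than Gcg were level. Ttr, transthyretin, had 11318 in the Isl1CKO and 3245 in the control cells (1.80, 1.79 to 1.82), and 77766 in the other Isl1CKO cells. Slc38a5, an amino acid transporter of alpha cells, had 760.3 against 50 (3.93), and 8772 in the other Isl1CKO cells. The 5 cells richest in Slc38a5 held 54.2% of its UMIs, and without the 5 richest cells of each library the ratio was 3.30. Isl1CKO mesenchymal cells had Ttr at 801 CPM and Slc38a5 at 46.5 CPM, against 5140 and 345 CPM in the insulin-high cells. Both genes were lower in the Isl1CKO cells with more insulin, Ttr from 18768 at 20% to 40% to 5391 at 60% or more and Slc38a5 from 1534 to 82.2. Irx1 turned from 1.01 to -0.76 at matched insulin share, and Gc from 1.29 to 0.025. Rbp4, a delta cell marker that beta cells also express, was higher at 3903 against 1316 (1.57), and Hhex, the delta cell factor, lower (-1.04). The part of free RNA and of cell pairs in these values was not tested.

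Some markers of mesenchymal, endothelial and white blood cells were at 0 in the Isl1CKO insulin-high cells, while other members of the same lists were not. Of 9 mesenchymal markers 5 had 0 UMIs (Col1a1, Col1a2, Dcn, Lum and Pdgfra), and Vim alone was compared, with 107 UMIs against 21. Their summed level was 17.1 in the Isl1CKO and 4.21 in the control cells. Of 7 endothelial markers 3 were at 0 (Kdr, Cdh5 and Flt1), with a summed level of 34.5 against 22.3. Among the others, Plvap had a UMI in 3.13% of Isl1CKO and 0.557% of control cells, and Pecam1 in 1.83% and 0.334%. Of 7 immune markers 3 were at 0 (Ptprc, C1qb and Lyz2), and their summed level of 209.8 against 139.6 was mostly C1qa, a complement subunit, with a level of 201 against 118 and a UMI in 87.2% and 61.9% of cells. Acinar markers summed to 181 against 159.8, and Ctrb1, a chymotrypsin gene, had a UMI in 46.5% and 36.7% of cells. Ductal markers summed to 1209.7 against 1140.6, with none at 0, and most of this was the keratins Krt7, Krt8 and Krt18. The part of these transcripts in the results was not tested. Summed erythroid markers were 7.20 against 1259.6, and 6409 of 6430 control Hba-a1 UMIs lay in 1 cell.

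Msln, Cd79a and Fam151a, 3 genes that mark the insulin-high cells against the other cells of their library, were each above control. Msln encodes mesothelin, a surface glycoprotein of mesothelium; it lies at chromosome 17:25748613-25754378. Its level was 1515 in the Isl1CKO cells, 247 in the control cells and 13.8 in the other Isl1CKO cells, a log2 ratio to control of 2.62 (2.56 to 2.68). An Msln UMI was found in 70.5% of Isl1CKO and 32.0% of control cells, or 55.4% and 19.6% after thinning; mesenchymal cells gave 1 of 22 and 0 of 46. Cd79a encodes a subunit of the B cell receptor complex, and it had 254 against 84.2 (1.59, 1.48 to 1.70), in 77.8% and 39.0% of cells. The B cell genes Cd79b, Ms4a1, Ighm and Pax5 were at 0 in the Isl1CKO insulin-high cells, while Igkc, an immunoglobulin light chain gene, was higher with 140 UMIs against 79 (1.82), or 0.48 at matched insulin share. Cd79a and Igkc were the 2 B cell markers compared. Fam151a had 453 against 311 (0.54), with 0.91 in female and -0.026 in male cells.

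Msln split the Isl1CKO cells. At 5 or more Msln UMIs per 10000 non-hormone UMIs, a boundary chosen after the values were seen, 198 of 383 Isl1CKO cells (51.7%, 46.6% to 56.8%) and 156 of 898 control cells (17.4%, 14.9% to 20.01%) were Msln-high. Between 3 and 7 lay 12 Isl1CKO and 56 control cells, so few Isl1CKO cells were near the boundary. Of the Msln-high Isl1CKO cells 74.7% were female, against 39.5% of the Msln-low cells, and their median insulin share was 56.0% against 43.9%. Msln was 2217 in female and 591 in male Isl1CKO cells, and 254 and 259 in control. Against control the ratio was 3.13 in female and 1.19 in male cells.

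Between the Msln classes of the Isl1CKO cells Ucn3 and Trpm5 differed by more than 2-fold. Of 16 maturation genes compared these 2 were higher in Msln-high cells, 0 were lower and 13 had a ratio above 0, with a median of 0.43. In control 0 of 18 were higher, 1 was lower (Mafa) and 9 had a ratio above 0, with a median of -0.011. Of 7698 genes 27 (0.351%) were at least 2-fold higher and 57 (0.74%) lower in Msln-high than in Msln-low Isl1CKO cells. In control the counts were 2 (0.0231%) and 115 (1.33%) of 8650. Ucn3 was 198 in Msln-high and 67.9 in Msln-low Isl1CKO cells (1.55 on the log2 scale), and 559 and 473 in control (0.24). Trpm5 gave 1.90 in Isl1CKO and 0.13 in control, Slc2a2 0.83 and 0.099, G6pc2 0.86 and -0.046, and Scg2 0.76 and -0.055. The maturation genes Prlr, Esrrg and Nnat gave -0.37, -0.22 and -0.017 in Isl1CKO cells. Nkx6-1 differed little in either (0.11 and 0.012). Ppy was 1.10 in Isl1CKO and -0.86 in control. The female share and the insulin share differed between the Msln classes of the Isl1CKO cells, and their part in these values was not tested.

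**Figure D5:**
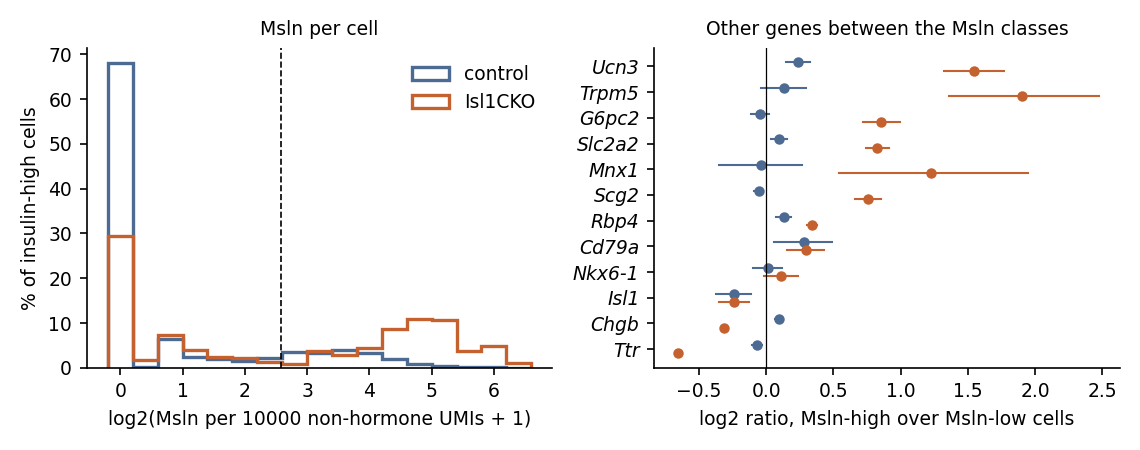
Left, distribution over insulin-high cells of log2(Msln UMIs per 10000 non-hormone UMIs + 1) in each library, as a percentage of cells, with the boundary of 5 dashed. Right, log2 ratios of Msln-high over Msln-low cells within each library with 95% exact binomial intervals. The Isl1CKO cells have peaks at 0 and near 5 on this scale, and Ucn3 and Trpm5 ratios are 1.55 and 1.90 in Isl1CKO against 0.24 and 0.13 in control.

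The genes that varied most among the Isl1CKO insulin-high cells beyond counting error were Ttr, Chgb, Malat1, Slc38a5, Ccl5, Chga, Ube2c, Rbp4, Hist1h1b and Msln, with acinar genes left out. Variation is given as the variance of Pearson residuals, which is near 1 for counting error alone and had a median of 1.17 over 7642 genes. Chgb had 370.5 in the Isl1CKO and 135 in the control cells, with quartiles of 120.5 and 416 UMIs per cell. Ttr had 565 against 65.5, and the 5 richest cells held 27.4% of its UMIs. Malat1, a nuclear noncoding RNA, had 363 against 171. Msln had 40.3 against 20.1. Where cells differ, this variance rises with a gene's mean count, so these pairs do not show which library varied more for its level. Mean UMIs per cell were 369.7 in the Isl1CKO and 72.2 in the control cells for Chgb. They were 197 and 48.0 for Ttr, 26.4 and 3.65 for Msln, and 297 and 324 for Malat1. Ccl5, Ube2c and Hist1h1b owed their place to a few cells, which held 100%, 96.4% and 85.7% of their UMIs in 5 cells.

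The rule itself used the contrast with the other Isl1CKO cells, in which 895 of 11995 genes (7.46%) were higher and 1461 (12.2%) lower. The highest, after Ins1 and Ins2, were Msln (6.78), Ucn3 (6.86), Tmem215 (6.64), Slc2a2 (6.07), Trpm5 (6.40) and Mslnl (5.78). The lowest were Gcg (-6.70), the collagen genes Col1a1, Col1a2 and Col3a1, Dcn, Peg10, Sparc and Mest. Ucn3 and Trpm5 thus led the insulin-high cells within their own library although both were below control. Isl1 stood at 534 in the other Isl1CKO cells. Of 22 beta cell transcription factors 19 were compared here, 7 were higher and 0 lower, with a median of 0.57; Pdx1 had 249 against 31.6 (2.98).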

How the data were processed

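UMI counts per gene and barcode were measured in 1 control and 1 Isl1CKO library of sorted islet cells. The deposited values are raw UMI counts from the authors, over 46983 genes. The build GRCm38.p6 is named in the submitters' processing notes, as are Seurat 4.3.0.1, STAR 2.7.3a and STARsolo, with no roles. The control matrix held empty droplets, and the Isl1CKO matrix had been filtered. Control barcodes were kept from 6825 UMIs. Counts were summed over the 383 and 898 insulin-high cells (6667185 and 13294183 non-hormone UMIs). Genes with at least 50 UMIs in the higher sum were compared, and a ratio of at least 2 was counted. No test was possible with 1 library for each genotype. Intervals at 95% are exact conditional binomial for ratios, exact Poisson for levels and Clopper-Pearson for shares. A sum of 0 was set to a floor of 3 UMIs, and for a share of 0 the limit given is 3 counts of the total. The comparison was tested on simulated counts. Named genes were the 10 highest and 10 lowest ratios by the interval bound nearest no difference, 8 and 8 against other Isl1CKO cells, the 10 most variable, and members of 32 lists, leaving out mitochondrial, ribosomal, uncharacterised, sex-linked, acinar and erythroid genes from the rankings. Values of some list members are not reported here. The members and lists were chosen with earlier results of these data known. Coordinates come from GENCODE M21 (46488 identifiers matched), and upstream sequences from RefSeq, with no entry for Ins2 and Msln. Sexes were called from Xist and Y-linked UMIs. Doublets were called with Scrublet in scanpy 1.11.5 and kept in the main comparison. The alternatives varied scaling, minimum count, insulin, mitochondrial and UMI thresholds, weighting, doublets, cycling cells, sex and depth; Msln class and removal of each gene's 5 richest cells were added after the data were seen. Python 3.11.15, numpy 2.4.6, pandas 2.3.3, scipy 1.17.1 and matplotlib 3.10.9 were used.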

Additional observations from a re-analysis of the deposited data

Results flagged for a closer look

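Ube2c, an enzyme of mitotic exit, differed in opposite directions between the sexes. Its log2 ratio of Isl1CKO to control insulin-high cells was -3.41 in female cells and 1.14 in male cells, and 120 of the 129 Isl1CKO male UMIs lay in 1 cell. Ptger3, a prostaglandin receptor, had -1.69 in female and 1.66 in male cells (38 against 94 and 109 against 129 UMIs), with at most 9 in a single Isl1CKO cell. The difference between the sexes was not tested for either gene.

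Control barcodes with at least 1000 UMIs but fewer than the control minimum were not used in the comparisons, and 4.70% of them (41 of 872) had at least 20% of UMIs from Ins1 and Ins2. Those 41 held a median of 2820 UMIs and 9.19% mitochondrial UMIs. In control droplets with at most 100 UMIs, Gcg stood at 47399 CPM, against 2625 CPM in control and 6.54 CPM in Isl1CKO insulin-high cells. The Isl1CKO matrix lists no such droplets.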

How the results depend on the processing

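No paired analysis was possible because each genotype has 1 library. Counts of higher and lower genes against control (409 and 591) became 1112 and 256 on CPM, 158 and 265 with a minimum of 200 UMIs, 1128 and 1751 with none and 100 and 268 with cells thinned to 2000 non-hormone UMIs. With a minimum of 20 UMIs 970 were lower. Female cells gave 320 lower and male cells 264 higher, and Msln-high cells alone, an alternative chosen after seeing the data, gave 261 and 236. Without each gene's 5 richest cells, also chosen afterwards, 337 and 760 were counted. Against the other Isl1CKO cells the counts (895 and 1461) became 202 and 6276 on CPM, 481 and 799 with a minimum of 200 UMIs, and 3830 were higher with none. The insulin-high share of the Isl1CKO library became 15.9% at an insulin threshold of 10%, 9.07% at 40%, 22.6% in female and 7.30% in male cells; the control share became 41.6% in female cells and 27.8% with a minimum of 1000 UMIs. Among the 5723 alternative values of named genes 282 changed sign, 75 of them on CPM, and 273 of the 282 had a reported ratio within 2-fold. The ratios past 2-fold that changed sign were Birc5 (0.91), Ccnb1 (0.17) and Ccnb2 (0.13) without cycling cells, Hhex (1.16) without cells of several hormones, Irx1 (-0.76) at matched insulin share, Peg10 (0.49) after thinning, and Hbb-bs (0.31 in female cells, 1.20 in Msln-high cells, 0.89 without its 5 richest cells). The cause was not tested. In all 4182 values stayed within the counting interval of the reported ratio. Genes near 50 UMIs rest on few counts.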

Other observations

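Between the insulin-high cells of the 2 libraries, most compared members of the enterochromaffin and progenitor lists passed the 2-fold rule, but fewer did at matched insulin share. Before that matching, at most 1 member of each other list named here passed it. Of 3 enterochromaffin markers compared, Fev (2.85) and Slc18a1 (1.43), the vesicular monoamine transporter, were at least 2-fold higher than in control, and Tph2 and Lmx1a had 0 UMIs. Of 6 progenitor markers Neurog3, Fev and Gadd45a were higher and Cdkn1a and Btbd17 lower. Fev is in both lists. With control weighted to the insulin share of the Isl1CKO cells, 1 enterochromaffin marker was higher and 0 lower. For the progenitor markers 1 was then higher and 1 lower. Krt19, a keratin of duct cells, was lower with 97 UMIs against 549 (-1.51), the 1 lower gene of 5 ductal markers compared. Fcer1g was lower among 2 immune markers (-1.57), and Esam higher among 2 endothelial markers. Of 7 acinar markers Try4 was higher, of 3 gamma cell markers Ppy was lower, and neither of 2 epsilon cell markers passed. At matched insulin share 3 gamma cell markers were lower.

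Of 7383 genes compared in both sexes, 452 passed the 2-fold rule over all cells, and 310 of these passed it in female and in male cells alike; they were chosen on the sum of both, so this count is a description. Pyy, a peptide of gamma and other islet cells, had 0.25 in female and -1.49 in male cells.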
